A study of Mus musculus with 6 samples.

Results

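The IL-6 family is a group of secreted cytokines that signal through the shared receptor chain gp130, which is encoded by Il6st. The genes described here are the cytokines Il6, Lif, Il11, Cntf, Clcf1, Osm and Ctf1 and the signalling receptor chains Lifr, Osmr and Il6st. They were chosen by name: a probe belonged to the set if its transcript accession mapped to 1 of these 10 symbols. The rule found 16 of the 56605 probes on the array, and all 10 genes had at least 1 probe. Of the 16 probes, 12 carried the scanner's flag for a signal well above background on every control array, every PRF array or both, and were tested.

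IL-6 and IL-11 each bind a receptor chain of their own, which then brings together gp130 molecules. LIF, CNTF, cardiotrophin 1 and cardiotrophin-like cytokine signal through gp130 paired with the LIF receptor, and oncostatin M in the mouse mainly through gp130 paired with the oncostatin M receptor. The paired chains activate JAK kinases and the transcription factor STAT3, which switches on Socs3, an inhibitor of the same pathway. In the nervous system CNTF and LIF are known as survival factors for neurons and as signals that push precursor cells towards the astrocyte fate, and IL-6 is known from inflammation and injury.

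RNA came from C8-D1A cells, a single cloned mouse astrocyte line, so the samples are cultures of 1 line and not separate animals. The control group was untreated cells (3 arrays) and the PRF group was cells given pulsed radiofrequency, short bursts of high-frequency current used clinically against neuropathic pain (3 arrays). All cultures were grown for 6 days in plates of 12 wells with 10% serum and then kept for 24 h without serum, and the labels describe 3 independent experiments. The labels give neither the settings of the stimulation nor the time that passed before RNA was taken. The comparison asked how PRF changes gene expression in these cells.

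Each level below is the log2 signal of a probe minus the 75th percentile of its array, so 0 means a signal equal to that percentile. Levels of different probes cannot be set against each other, because probes bind with different strength. A change is the mean PRF level minus the mean control level, and it passed the test if the adjusted p from limma, adjusted over all 34838 tested probes, was below 0.05. The flag was set for 59.5% to 61.2% of probes on a control array and for 62.1% to 63.9% on a PRF array. Precision is limited by the 3 arrays in each group. Of all tested probes 31.1% passed, 18.4% higher and 12.7% lower in PRF cells. Among probes that passed, 59.2% were higher with this scaling. The share was 41.4% with quantile normalization, 29.4% with scaling to spike-in RNAs and 38.3% with the deposited values unscaled. The last 2 moved the median change of all tested probes from 0.018 to -0.17 and -0.12.

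The label astrocyte was set against marker genes. Gfap, the classical astrocyte filament gene, and Vim and S100b were well above background on all 6 arrays, whereas no probe of Gja1 or Slc1a3 was on any array. Sox10, a gene known from oligodendrocytes, was also well above background on all 6 arrays. The summed level of 12 astrocyte markers, as linear signal relative to the 75th percentile, was 163 to 176 on control and 187 to 193 on PRF arrays. Most of this sum came from Vim and S100b, and neither passed (adjusted p = 0.119 and 0.185). Of the other markers in the sum, Apoe and Glul rose (adjusted p = 0.00058 and 0.0177). For 6 neuron markers the summed level was 23.7 to 26.7 on control and 24.7 to 29.1 on PRF arrays. For 4 fibroblast and vascular markers it was 2.81 to 3.08 and 2.33 to 2.75.

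After PRF Lif, Il11 and Cntf were higher, 1 probe of Osm was far brighter, and Ctf1 was lower. No probe of the receptor genes Il6st and Lifr passed with this scaling. With spike-in scaling 1 probe of Lifr passed downward (change -0.28, adjusted p = 0.0354). A group of 8 members can be counted without the filter deciding the outcome, since they had a representative probe (the probe of the gene with the highest mean) well above background on all 6 arrays. Of these 8 members 3 rose and 1 fell. Among all 14044 named genes of that kind 26.7% passed, as 12.5% rose and 14.2% fell. The median change of the 8 was 0.39 on the log2 scale, beside -0.020 for all such genes. In 5 of the 8 the control and PRF arrays did not overlap, which held for 49.2% of all such genes. The plot of levels by array shows every member probe.

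**Figure D1:**
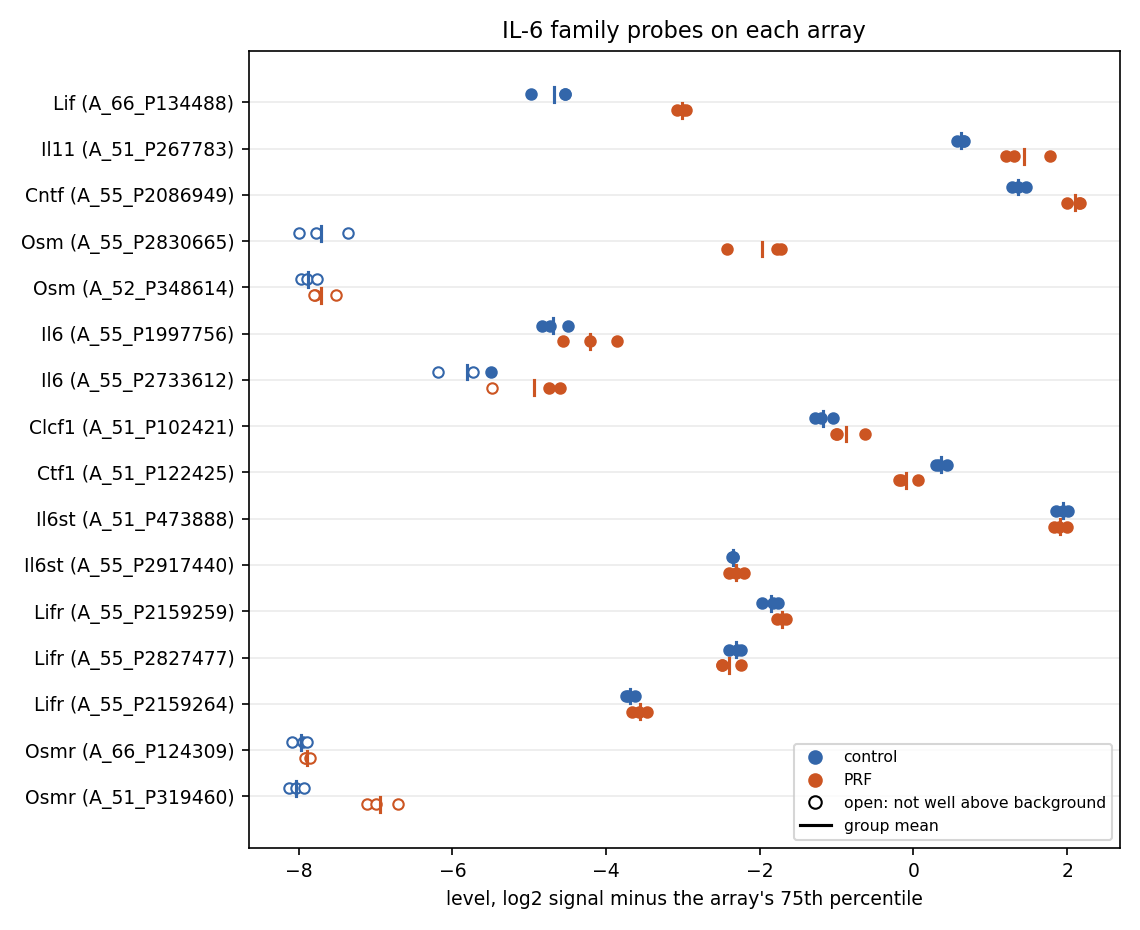
Level of each of the 16 member probes on each array (x axis, log2 signal minus the 75th percentile of the array), with control arrays in blue, PRF arrays in orange, open circles for arrays where the probe was not well above background and a bar at each group mean (n = 3). The 3 PRF circles of Lif lie between -3.08 and -2.95, above control circles between -4.97 and -4.54, and the probe A_55_P2830665 of Osm turns from open to filled after PRF.

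The regions just upstream of Lif, Il11, Cntf and Ctf1 are shown here, and those of Lif, Il11 and Cntf hold the same short match. The windows were picked for print with the changes and this match known. A link between the match and the changes was not tested. Sequences are the 250 bases before the RefSeq start in build GRCm38.p6, where 8 of the 10 members had an entry, 10 windows in all. Osm and Clcf1 had no entry. Windows lie at chr11:4257318-4257567 (plus strand) for Lif, chr7:4778142-4778391 (minus strand, the inner of the 2 listed starts) for Il11, chr19:12765633-12765882 (minus strand) for Cntf and chr7:127712453-127712702 (plus strand) for Ctf1. All are printed 5′ to 3′, and capitals mark a match to the AP-1 motif TGANTCA, the site bound by dimers of FOS and JUN proteins.
Lif: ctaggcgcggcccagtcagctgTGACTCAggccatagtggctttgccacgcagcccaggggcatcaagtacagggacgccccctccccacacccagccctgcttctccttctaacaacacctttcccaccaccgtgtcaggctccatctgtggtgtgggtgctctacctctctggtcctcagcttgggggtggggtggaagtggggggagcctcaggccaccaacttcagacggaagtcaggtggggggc
Il11: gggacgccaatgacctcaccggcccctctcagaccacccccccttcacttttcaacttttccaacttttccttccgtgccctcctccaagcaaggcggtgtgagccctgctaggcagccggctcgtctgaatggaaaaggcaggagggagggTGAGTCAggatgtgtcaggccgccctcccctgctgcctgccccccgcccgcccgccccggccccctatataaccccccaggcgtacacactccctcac
Cntf: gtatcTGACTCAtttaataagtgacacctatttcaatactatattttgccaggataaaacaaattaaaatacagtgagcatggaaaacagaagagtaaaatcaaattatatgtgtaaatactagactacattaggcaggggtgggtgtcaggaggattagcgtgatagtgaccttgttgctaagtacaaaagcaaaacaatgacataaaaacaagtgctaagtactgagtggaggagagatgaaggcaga
Ctf1: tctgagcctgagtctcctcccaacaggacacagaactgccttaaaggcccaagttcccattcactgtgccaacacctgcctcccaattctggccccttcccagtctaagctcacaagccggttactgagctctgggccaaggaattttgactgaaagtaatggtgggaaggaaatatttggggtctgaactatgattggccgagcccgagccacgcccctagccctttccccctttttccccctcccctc

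The match began 228 bases before the start of Lif, 98 before that of Il11 and 245 before that of Cntf. Another began 249 bases before the start of Il6, whose change did not pass. The windows of Ctf1, Il6st, Lifr, Osmr and the outer start of Il11 held none. In all, 4 of the 10 windows held the motif, as did 6.75% of all 32851 RefSeq windows of this length. The other motifs, like AP-1 searched on both strands, had no match in any of the 10 windows. These were the TATA box (TATAAA, in 12.4% of all windows), the CRE (TGACGTCA, 1.55%), the STAT motif (TTCNNNGAA, 7.02%), the heat shock element (0.466%) and the EGR1 motif (GCGTGGGCG, 0.536%). Only these letters were searched, so the stretch tatataa in the printed Il11 window was not counted as a TATA box. A match describes these letters and is not a measured binding site.

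Lif encodes leukemia inhibitory factor, which acts through LIFR and gp130. Its probe A_66_P134488 had levels of -4.54, -4.54 and -4.97 in control cells and -3.08, -2.95 and -3.0 in PRF cells. All PRF arrays lay above all control arrays, and the gap was far wider than the spread within either group. Lif was 3.18-fold higher after PRF (95% interval 2.55 to 3.97, adjusted p = 0.000419). The probe was dim, with deposited signals of 19.0 to 29.1 in control and 69.2 to 75 in PRF cells, where the lowest signal called well above background on an array was 10.4 to 11.9. With normexp background correction, which adds 50 to every signal, the rise was 0.78 instead of 1.67 on the log2 scale (adjusted p = 1.09e-05). Within the first and second array row of the slide the change was 1.80 and 1.5, and in the second row it missed the threshold (adjusted p = 0.0597).

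Il11 encodes interleukin 11, a cytokine that works through its own receptor chain and gp130. The levels of its single probe were 0.66, 0.64 and 0.57 in control cells and 1.78, 1.31 and 1.2 in PRF cells. Every PRF array was above every control array, and PRF replicate 1 stood above the other two. Il11 was 1.75-fold higher (95% interval 1.36 to 2.26, adjusted p = 0.0102). Without PRF replicate 1 the change was 0.63 instead of 0.81 on the log2 scale and still passed (adjusted p = 0.00538).

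Cntf encodes ciliary neurotrophic factor, a product of astrocytes that supports motor neurons. Control levels were 1.46, 1.36 and 1.28 and PRF levels 2.15, 2.17 and 2.0. The groups were well apart and equally tight (SD 0.091 and 0.096, n = 3). Cntf was 1.67-fold higher (95% interval 1.45 to 1.92, adjusted p = 0.00151). In RefSeq the span of Cntf lies inside Gm44505, a read-through transcript from the neighbouring gene Zfp91, so the probe may also read that transcript. The probe of Zfp91 itself, looked up after the values were seen, had mean levels of 4.31 ± 0.08 and 4.32 ± 0.05 (SD, n = 3), with a 95% interval of the change from -0.17 to 0.17. Within the first and second array row the changes were 0.70 and 0.85 for Il11 and 0.80 and 0.71 for Cntf, and none of these 4 passed there (adjusted p from 0.0631 to 0.279).

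Osm encodes oncostatin M, best known as a product of activated myeloid cells and T cells, and its 2 probes disagreed. Probe A_55_P2830665 had levels of -7.35, -8.00 and -7.77 in control cells, not well above background on any array, and of -1.72, -1.78 and -2.42 in PRF cells, well above it on all 3. Probe A_52_P348614, which targets the same gene, stayed near background on all 6 arrays, with levels of -7.97, -7.89 and -7.76 and of -7.52, -7.79 and -7.80. So a rise was seen by 1 of the 2 probes alone. For the first probe only a bound can be given: its signal was at least 13.9-fold higher after PRF, where the dim side is the higher, on each control array, of the probe's own level and the lowest level called well above background there (adjusted p of the fit 6.43e-05). The fitted rise of 5.73 on the log2 scale was 1.79 with normexp. This probe was tested because it was bright in PRF cells, so its pass is not counted as support for the family.

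Markers of myeloid cells were read beside Osm. Of 8 microglia and macrophage markers 4 (Aif1, Cx3cr1, P2ry12 and Ptprc) were not well above background on any array, and 4 (Cd68, Csf1r, Itgam and the microglial gene Tmem119) were on all 6. The summed level of the 8 was 13.0 to 14.1 on control and 18.7 to 23.6 on PRF arrays. Itgam, an integrin chain of myeloid cells, rose by 0.86 on the log2 scale (adjusted p = 0.00406) and was the only 1 of the 8 to pass by its representative probe. A second probe of Itgam rose by 0.63 (adjusted p = 0.0381). Cd68 had a change of 0.36 and did not pass (adjusted p = 0.0577). For Csf1r, the receptor for a macrophage growth factor, the representative probe had a change of 0.16 (adjusted p = 0.184). A second probe of Csf1r fell by 0.30 (adjusted p = 0.0180). Tmem119 had a change of -0.25 and did not pass (adjusted p = 0.0601). The part of this shift in the Osm result was not tested. In RNA of whole cultures, fewer or more cells of a type and less or more RNA per cell cannot be told apart.

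Il6 encodes interleukin 6, and its 2 probes leaned the same way without passing. Probe A_55_P1997756 had levels of -4.49, -4.73 and -4.84 in control and -3.86, -4.55 and -4.21 in PRF cells. The lowest PRF array was within the range of the controls, and the 95% interval of the change, 0.026 to 0.93 on the log2 scale, was wide (adjusted p = 0.101). It passed with normexp, where the change was 0.27 (adjusted p = 0.00895), and without PRF replicate 2, where it was 0.65 (adjusted p = 0.0416). Against a change of 0.48 as reported, it was 0.093 with quantile normalization (adjusted p = 0.732), 0.11 within the first array row (adjusted p = 0.774) and 0.29 when scaled to spike-in RNAs (adjusted p = 0.217). With PRF replicate 1 left out it was 0.30 (adjusted p = 0.218). Probe A_55_P2733612 was well above background on 1 control and 2 PRF arrays and was not tested. Its levels were -5.50, -5.73 and -6.19 in control and -4.60, -5.48 and -4.74 in PRF cells.

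Clcf1 encodes cardiotrophin-like cytokine factor 1, which acts through the CNTF receptor. Levels were -1.04, -1.28 and -1.21 in control and -0.63, -1.01 and -1.0 in PRF cells. The groups did not overlap, but 2 PRF arrays lay only just above the highest control array, and the change of 0.30 (95% interval -0.0073 to 0.60) did not pass (adjusted p = 0.123). It passed with normexp (change 0.30, adjusted p = 0.0200). The change was 0.11 with spike-in scaling (adjusted p = 0.492), 0.16 with unscaled values (adjusted p = 0.566), 0.11 within the first array row (adjusted p = 0.672) and 0.17 without PRF replicate 1 (adjusted p = 0.252).

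Ctf1 encodes cardiotrophin 1, a ligand of the LIFR and gp130 pair known from heart muscle, and was the only ligand of the 7 that fell. Control levels were 0.33, 0.29 and 0.43 and PRF levels 0.063, -0.18 and -0.16. All PRF arrays were below all control arrays, although PRF replicate 1 lay closer to them. Ctf1 fell by 0.45 on the log2 scale (95% interval -0.66 to -0.23, adjusted p = 0.0130). With each array left out in turn the adjusted p ran from 0.00968 to 0.0496. Within the first and second array row the change was -0.57 and -0.34, neither past the threshold (adjusted p = 0.0945 and 0.413).

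**Figure D2:**
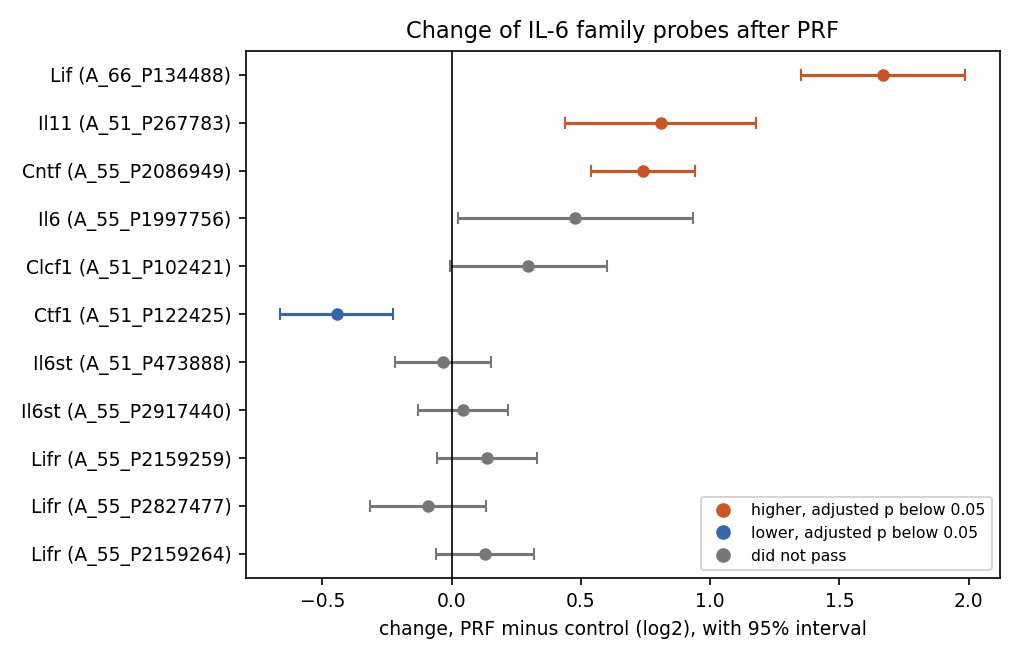
Change of the 11 tested member probes that were well above background in control cells (x axis, PRF minus control on the log2 scale), with points for the fitted change and bars for its 95% interval (3 arrays per group). Lif, Il11 and Cntf lie to the right of 0, Ctf1 lies to the left, and the 5 probes of Il6st and Lifr lie between -0.092 and 0.14 with intervals that include 0.

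Il6st encodes gp130, the chain that every member of the family needs. Its bright probe A_51_P473888 had levels of 1.86, 2.01 and 1.95 in control and 1.90, 1.83 and 1.99 in PRF cells. The groups overlapped fully, and the 95% interval of the PRF to control ratio ran from 0.860 to 1.11 (adjusted p = 0.773). The second probe gave a ratio between 0.913 and 1.16 (adjusted p = 0.682). The sign of the change was -0.033 for the first probe and 0.044 for the second, and for the second it turned negative with the 4 other scalings (-0.010 to -0.15). The change of the first probe was -0.22 with spike-in scaling (adjusted p = 0.0964) and -0.17 with unscaled values (adjusted p = 0.281). With quantile normalization it was -0.0063.

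Lifr encodes the LIF receptor chain, the partner of gp130 for LIF, CNTF, CLCF1 and cardiotrophin 1. It had 3 probes, and none passed. Probe A_55_P2159259 had levels of -1.83, -1.76 and -1.97 in control and -1.78, -1.66 and -1.71 in PRF cells, with a ratio between 0.962 and 1.26. The 2 further probes had changes of 0.13 and -0.092, with intervals of the ratio from 0.960 to 1.25 and from 0.803 to 1.10. With spike-in scaling probe A_55_P2827477 passed downward (change -0.28, adjusted p = 0.0354) and the 2 other probes had changes of -0.052 and -0.060.

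Osmr encodes the second partner of gp130 for oncostatin M. Neither of its 2 probes was well above background on any array. Levels of A_51_P319460 were -8.13, -8.03 and -7.93 in control and -7.11, -6.99 and -6.70 in PRF cells, and those of A_66_P124309 were between -8.08 and -7.86 on all 6 arrays. The first probe was brighter after PRF on each array, but still below the detection flag, so no fold is given.

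Among receptor chains outside the 10 members, Il6ra, the IL-6 binding chain, was 1.77-fold higher. The levels of its bright probe were 2.23, 2.07 and 1.84 in control and 2.92, 2.95 and 2.75 in PRF cells, with no overlap (adjusted p = 0.00364). A dim second probe had a change of 0.39 and did not pass (adjusted p = 0.0619). Il11ra1, the IL-11 binding chain, had a change of 0.079 (95% interval -0.13 to 0.28), which was -0.062 with unscaled values and -0.11 with spike-in scaling. Cntfr, the CNTF binding chain, had a change of -0.39 with a wide interval from -0.94 to 0.16 (adjusted p = 0.239), and it passed downward without control replicate 1 (change -0.63, adjusted p = 0.0321). The change was -0.22 without control replicate 3 (adjusted p = 0.521) and -0.095 within the first array row (adjusted p = 0.908). Of the 5 listed receptor chains these 3 were tested. Il31ra stood clear of background on 0 arrays and Il27ra on 0 control and 2 PRF arrays.

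Further ligands were read in the same way. Across all 15063 named genes tested, each by its representative probe, 29.7% passed, 16.3% higher and 13.5% lower. Il27, a subunit of interleukin 27, had a log2 change of -0.24 with an SE of 0.064 (adjusted p = 0.0326), but missed the threshold in 12 of 22 alternative settings. Il31 was well above background on 1 control array, at -2.82, where the other two were at -6.47 and -7.81, and on the PRF arrays at -2.11, -2.64 and -2.81 (adjusted p = 0.0914). The highest control array of Il31 was thus level with the lowest PRF array. The shedding proteases Adam10 and Adam17, which cut receptors such as IL-6R from the surface, had changes of -0.043 and 0.058 and did not pass.

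Of 12 JAK, STAT and adaptor genes downstream of gp130, all tested, 1 rose and 1 fell, and the median change was 0.0021. Among all genes well above background on all 6 arrays 26.7% passed. Gab1, an adaptor between gp130 and the MAP kinases, rose by 0.53 (SE 0.081, adjusted p = 0.00491). Stat5a fell by 0.36 (SE 0.069, adjusted p = 0.0106). Its second probe had a change of 0.21 (adjusted p = 0.509), and with the mean of both probes the gene's change was -0.074 (adjusted p = 0.663). The bright probe of Stat3 had levels of 3.50, 3.42 and 3.37 in control and 3.62, 3.72 and 3.51 in PRF cells and did not pass (adjusted p = 0.124). A dim second probe of Stat3 rose by 0.76 (SE 0.13, adjusted p = 0.00800), and with the mean of both probes the gene passed (change 0.47, adjusted p = 0.0119).

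Of 8 inhibitors of the pathway, all tested, 2 rose and 1 fell, with a median of 0.032, where 12.5% of all genes well above background on all 6 arrays rose and 14.2% fell. Socs3, which binds gp130 and blocks JAK, had levels of 2.85, 2.89 and 2.62 in control and 3.29, 3.25 and 3.09 in PRF cells, 1.34-fold higher with no overlap (adjusted p = 0.0208). This call was lost when control replicate 3, PRF replicate 1 or PRF replicate 2 was left out (adjusted p 0.0513 to 0.0713), with array row as a block (adjusted p = 0.0539), with unscaled values (adjusted p = 0.201) and with spike-in scaling (adjusted p = 0.136). Socs2 rose by 0.56 (SE 0.13, adjusted p = 0.0220) but with control replicate 1, control replicate 3 or PRF replicate 2 left out it did not pass (adjusted p 0.0640 to 0.0681). It also missed the threshold with replicate number as a block (adjusted p = 0.0513), with array row as a block (0.0570), without the filter on dim probes (0.0519), with spike-in scaling (0.0833) and with unscaled values (0.112). Its second probe rose by 1.09 (adjusted p = 0.00977). Socs1, an inhibitor of interferon and cytokine signalling, fell by 0.67 (SE 0.12, adjusted p = 0.00884).

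Among 20 known STAT3 target genes 17 were tested, all well above background on all 6 arrays, and 5 rose and 1 fell. Among all genes of that kind 12.5% rose and 14.2% fell. The median change was 0.12, beside -0.020 for all of them. Junb, an AP-1 subunit, rose by 1.48 (SE 0.088, adjusted p = 0.000161), Mcl1, a survival factor of the BCL2 family, by 1.11 (SE 0.13), Cebpb by 0.72 (SE 0.099) and Bcl6 by 0.56 (SE 0.081). Myc, named after its value was seen, was the only fall, by 0.36 (SE 0.078, adjusted p = 0.0164), and missed the threshold without PRF replicate 2 (adjusted p = 0.0616). Pim1, Bcl3, Gfap, Serpina3n and Timp1, which also answer to STAT3, did not pass, with changes from -0.076 to 0.15. Several genes of this list, Junb and Fos among them, also respond to other signals.

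**Figure D3:**
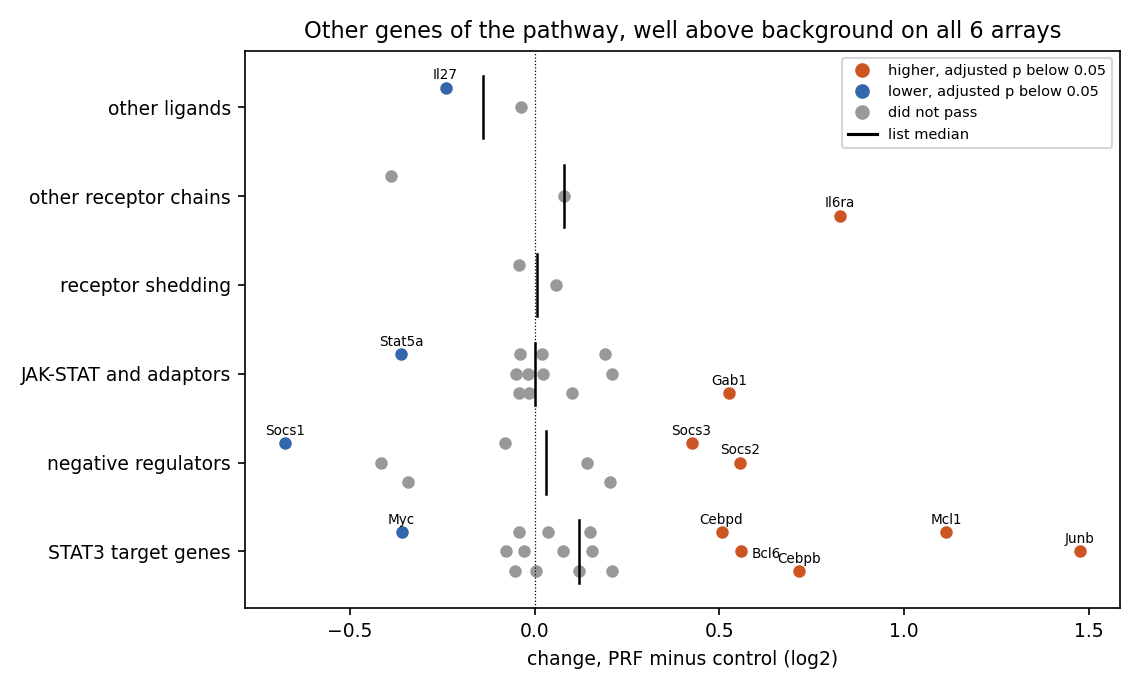
Change of the other pathway genes that were well above background on all 6 arrays (x axis, PRF minus control on the log2 scale), 1 row per list, with named points for genes that passed and a black bar at the median of each list. The bars lie between -0.14 and 0.12, and Junb (1.48), Mcl1 (1.11) and Il6ra (0.83) lie farthest to the right.

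The genes whose pattern over the 6 arrays was closest to Lif, Il11, Cntf and Ctf1 were found by the root mean square distance between profiles, each centred on its own mean, among 15059 other genes. For Lif the closest were Ccdc166, Vmn1r61 and Dok7 at distances of 0.105, 0.112 and 0.124 on the log2 scale. Il11 was closest to Psapl1, Tfpi and Klhl40 (0.0542 to 0.0767) and Cntf to Ugt2a1, Tiparp and Pip5k1a (0.0279 to 0.0432). Ctf1 was closest to Stk35os1, Fbxl2 and 4833418N02Rik (0.0528 to 0.0558). Within 0.1 there were 0 genes for Lif, 19 for Il11, 114 for Cntf and 151 for Ctf1, out of the 15059 compared. This limit is the same for large and small changes, so the counts do not measure how widely each pattern was shared.

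**Figure D4:**
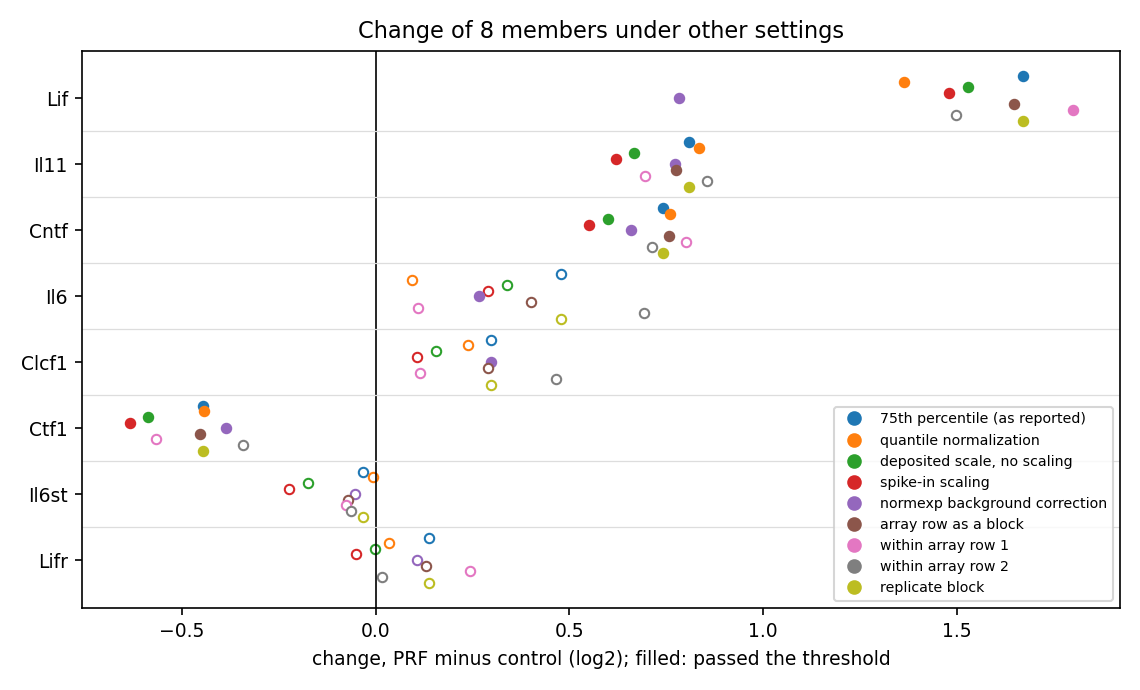
Change of 8 members, by their representative probes, under 9 ways of processing the arrays (x axis, PRF minus control on the log2 scale), with filled points where the member passed the threshold of that setting and open points where it did not. Lif, Il11 and Cntf stay to the right of 0 and Ctf1 to the left in all 9, while open points stand for Il11, Cntf and Ctf1 within either array row.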

How the data were processed

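One-colour (Cy3) Agilent arrays, 6 on 1 slide, were analysed, 3 control and 3 PRF. The deposited files hold intensity values per spot from Agilent Feature Extraction, version 10.7.3.1 per the file headers. They give the processed signal, already corrected for background, beside the raw median and the local background, and were not normalized between arrays. For at least 99.9% of probes the authors' series table held the same processed signal (relative tolerance 0.0001). The array design refers to mm9.

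Control spots and outlier-flagged spots were left out, spots of the same probe were averaged, and log2 signals were reduced by the 75th percentile of each array. A probe was tested if flagged well above background on every array of the control group, the PRF group or both. Group was the only term in limma 3.58.1 (lmFit, eBayes; R 4.3.3), with Benjamini-Hochberg adjustment and a threshold of 0.05, and the step was tested on simulated data. Names came from RefSeq transcripts of GRCm38.p6 (32994 of 56605 probes). The representative probe of a gene is that with the highest mean over the 6 arrays.

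Named genes are all 10 members with every probe, up to 4 called genes of each pathway list with the largest change, Il6ra, Il11ra1, Cntfr, Stat3 and Socs3, and the 3 genes nearest in pattern to each called member, except Osm, whose control level lies below detection. Cebpd, which also rose among the STAT3 targets, fell outside the limit of 4. Named outside this rule were Myc, Pim1, Bcl3, Gfap, Serpina3n, Timp1, Fos, Il31, Adam10, Adam17, Il31ra and Il27ra. Marker genes and genes next to a member were also named. The members and lists were chosen with earlier results of these data known. The labels do not say whether a replicate number marks 1 experiment shared by both groups, and the arrays were fitted as unpaired. Deviations from the group means of same-numbered arrays correlated at 0.145, -0.084 and 0.046, and those of differently numbered arrays at -0.174 to 0.132. With 3 arrays per group these values cannot decide whether the arrays are paired. The p-values measure the spread between the 3 experiments. Alternatives covered scaling, background correction, filters, array row, replicate block, leaving out each array, the adjustment, the probe rule and the threshold. Some measured genes are not reported here.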

Additional observations from a re-analysis of the deposited data

How the results depend on the processing

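Lif, Il11 and Cntf passed upward and Ctf1 downward under each scaling, with normexp, with array row as a block and without any 1 array. The bright probe of Osm passed upward in these settings too, but was tested only because it was bright in PRF cells. Its passes are not counted as support. Within array row 1, where 2 control arrays face 1 PRF array, limma called 3209 probes and 2 members (Lif and Osm, both higher, 2 member probes) and 2 pathway genes. Within row 2, with 1 control array, it called 162 probes, 1 member (Osm, higher, 1 member probe) and 0 pathway genes (8 at an unadjusted p below 0.05). These fits have fewer arrays, and a lone array is assumed to vary like the others. At an unadjusted p below 0.05 with at least a 1.5-fold change 6225 probes and 6 pathway genes passed, and Ctf1 did not. The median change of the tested members, 0.48 with Osm included, was 0.24 with quantile normalization, 0.29 with spike-in scaling, 0.30 with normexp, and 0.24 and 0.69 within array rows 1 and 2. With each array left out it ran from 0.30 to 0.65. Members called, with this Osm probe counted, ran from 5 to 6, and members higher from 4 to 5. Pathway genes called ran from 8 (without PRF replicate 2) to 15. With all arrays 13 of the 45 pathway genes tested passed, where 29.7% of all tested named genes did. With replicate number as a block 9422 probes were called, against 10833, with the same 5 members (Osm included) and 12 pathway genes. Array row as a block left 9 pathway genes. Without a filter on dim probes Osmr also passed upward, although neither probe was well above background. Signs turned, without a pass under the setting that turned them, for Il11ra1 (-0.062 unscaled, -0.11 scaled to spike-ins), Il6st A_51_P473888 (0.0023 without control replicate 2, 0.0061 without PRF replicate 2, 0.0052 with the mean of its probes, and from -0.077 to 0.0061 over all arrays left out in turn), Il6st A_55_P2917440 (-0.097 unscaled, -0.010 centred on the median, -0.11 with quantile normalization, -0.15 with spike-in scaling, -0.011 within row 2, -0.0064 without PRF replicate 2, and up to 0.092 over the other arrays left out), Lifr A_55_P2159259 (-0.0028 unscaled, -0.052 scaled to spike-ins), Lifr A_55_P2159264 (-0.012 unscaled, -0.17 quantile-normalized, -0.060 scaled to spike-ins) and Lifr A_55_P2827477 (0.033 within row 2). The cause of these shifts was not tested. Signals near background limit Lif, Il6 and Osmr.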

Other observations

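The protein-coding genes next to each member in RefSeq were looked up after the values of the members were seen. Outside the family they are 16 genes. Of these, 7 were well above background on all 6 arrays, where Dnajb6 rose, 0 fell, and 6 (Bcl7c, Pold4, Rad9a, Rictor, Tyms and Zfp91) did not pass. Among all named genes of that kind 12.5% rose and 14.2% fell. A further 5 (Ankrd55, Egflam, Fam71e2, Il31ra and Keg1) stood clear of background on 0 arrays, and Castor1 and Ctf2 on 1 PRF array each. The other two, Hormad2 and Tmem190, were tested only because they were bright in PRF cells, so their fits are no support for a change at these loci. Lif lies between Osm and Hormad2. Hormad2, which encodes a meiotic chromosome protein, stood clear of background on 0 control and 3 PRF arrays, at least 2.24-fold higher (adjusted p of the fit 0.00381). Tmem190, next to Il11, was also dim in control cells and at least 3.84-fold higher (adjusted p of the fit 0.00472). Lifr and Osmr are neighbours as well. Their outer neighbour Rictor, a subunit of the kinase complex mTORC2, had a change of 0.31 that did not pass (adjusted p = 0.0508). Next to Il6, Dnajb6, a heat shock co-chaperone, rose by 0.22 by its representative probe (adjusted p = 0.0312). Another probe of Dnajb6, about as bright in control cells, had a change of 0.020 and did not pass (adjusted p = 0.842). Its further probes rose by 0.25, 0.32 and 0.57. Tyms, a DNA synthesis enzyme also next to Il6, had a change of -0.16 that did not pass (adjusted p = 0.0954).

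Il27ra, the interleukin 27 receptor chain, had levels of -7.97, -7.92 and -7.79 in control cells, none of them clear of background, and -3.59, -3.96 and -5.59 in PRF cells, clear of it on 2 of 3 arrays. It was not tested, and the bound was at least 2.62-fold higher.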
